A study of Mus musculus with 8 samples.

Results

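The 10 genes described here encode the cohesin ring of meiotic chromosomes, its somatic counterparts and the HORMA domain proteins of the chromosome axis. They were taken by gene symbol, and all 10 were found among the 23235 genes of the expression files. Rec8, Smc1b and Stag3 make up the meiosis-specific cohesin genes, Hormad1 and Hormad2 the axis genes, and Smc1a, Smc3, Rad21, Stag1 and Stag2 the somatic or shared cohesin genes. RNA was sequenced from mouse spermatocytes with and without Cnot4, a RING-domain E3 ubiquitin ligase and subunit of the CCR4-NOT complex that shortens poly(A) tails of mRNA. The question was how loss of Cnot4 alters transcript levels before and after the middle of meiotic prophase. All mice were C57BL/6 males, 6 weeks old by the study's methods, and the spermatocytes were sorted by DNA content with fluorescent dyes into a leptotene and zygotene pool (LZ) and a pachytene and diplotene pool (PD). The genotypes were wild type (WT) and Cnot4-KO, in which Stra8-Cre, a recombinase active in male germ cells from before meiosis, deletes exon 2 of a floxed Cnot4 gene. Each of the 4 groups, WT LZ, Cnot4-KO LZ, WT PD and Cnot4-KO PD, had 2 libraries. The study's methods call the duplicates biological replicates, and neither they nor the labels say how many animals went into a library. The p-values measure the spread between these libraries.

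Cohesin is a ring of a pair of SMC proteins closed by a kleisin subunit and bound by a STAG subunit. It holds sister chromatids together, and in meiosis it is also the foundation of the chromosome axis on which homologs pair and recombine. Germ cells replace SMC1A, RAD21 and STAG1 or STAG2 in part by SMC1B, REC8 and STAG3, while SMC3 is shared by all rings. HORMAD1 and HORMAD2 coat axes that have not synapsed and are removed by the ATPase TRIP13 as synapsis proceeds.

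Expression is given in FPKM, a fragment count divided by transcript length and by library size, a scale on which levels of different genes can be compared. Low values fell on steps that give the worth of 1 read on the scale of each file, from 0.125 FPKM times kilobase in WT PD replicate 2 to 0.204 in Cnot4-KO PD replicate 2. These steps also carry any rescaling of the files, so they do not rank the libraries by read depth. Between 10076 and 14249 genes were above 1 FPKM, the lowest number in WT PD replicate 2 and the highest in Cnot4-KO PD replicate 2. Cnot4 itself measured 36.0 and 34.9 FPKM (WT LZ), 43.2 and 34.6 (Cnot4-KO LZ), 76.6 and 73.1 (WT PD) and 65.9 and 53.5 (Cnot4-KO PD). A single value per gene does not test the deletion of 1 exon, so these levels check no genotype label.

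The stage labels were checked against marker genes. Of 8 pachytene and diplotene markers, 8 rose from WT LZ to WT PD and 6 from Cnot4-KO LZ to Cnot4-KO PD. Their summed level, led by Ldhc, a sperm-specific lactate dehydrogenase, was 235 and 330 FPKM (WT LZ), 239 and 89.6 (Cnot4-KO LZ), 12100 and 11300 (WT PD) and 5460 and 1940 (Cnot4-KO PD). Of 6 leptotene and zygotene markers, 4 fell in WT PD and 5 in Cnot4-KO PD, and 1 rose in each genotype. The marker that rose was Spo11, which encodes the enzyme of meiotic break formation, with 14.5 and 30.2 FPKM (WT LZ), 24.5 and 11.7 (Cnot4-KO LZ), 134 and 147 (WT PD) and 56.6 and 35.2 (Cnot4-KO PD). At the other end of the list, with the largest fall in WT, Dmc1, the meiotic strand exchange recombinase, measured 75.75 and 91.5 FPKM (WT LZ), 132.5 and 81.8 (Cnot4-KO LZ), 1.16 and 0.590 (WT PD) and 8.58 and 9.22 (Cnot4-KO PD). The 2 Cnot4-KO PD libraries also carried markers of spermatids, Leydig cells and other testis cells far above WT PD, given in full beside the PD comparison. In such bulk pools, fewer cells of a type and less RNA per cell cannot be told apart.

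Promoter sequences are shown for 4 members that moved in different directions at PD: Stag3 and Hormad1, which were lower in Cnot4-KO PD than in WT PD, and Rec8 and Smc3, which were higher. The RefSeq promoter table of build GRCm38.p6 held 8 of the 10 members, without Rad21 and Stag2. Capitals mark TCCCGC, the letters of an E2F site, and CACGTG, an E-box, each searched on both strands, so that GCGGGA in Hormad1 and Smc3 is TCCCGC on the other strand. TCCCGC lay in 20.0% of all 32851 promoters in the table, each 300 bases long, and in 7 of the 8 members, all but Hormad2. CACGTG lay in 7.15% of them and in 2 members, Stag3 and Hormad1. A pair of MYB motifs, not marked, was also searched: TAACNG lay in 23.3% of all promoters and in 2 of the 8 members, Stag3 and Hormad1, and CAACNG in 35.0% and in 3 of the 8, Smc1b, Hormad2 and Smc1a. E2F6 and the E-box binding protein MGA are subunits of a Polycomb complex known to silence germ cell genes in other cells. A match is a description of the letters and not of a bound site. The stretches below run 5′ to 3′ from 250 bases before the annotated start to 10 bases after it, all on the plus strand: Stag3 at chr5:138280259-138280518, Hormad1 at chr3:95559427-95559686, Rec8 at chr14:55617916-55618175 and Smc3 at chr19:53600146-53600405.
Stag3: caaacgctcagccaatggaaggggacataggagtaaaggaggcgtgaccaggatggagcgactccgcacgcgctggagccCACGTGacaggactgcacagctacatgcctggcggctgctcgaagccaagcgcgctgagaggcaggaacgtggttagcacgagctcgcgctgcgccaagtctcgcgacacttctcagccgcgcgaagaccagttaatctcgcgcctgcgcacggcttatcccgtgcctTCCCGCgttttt
Hormad1: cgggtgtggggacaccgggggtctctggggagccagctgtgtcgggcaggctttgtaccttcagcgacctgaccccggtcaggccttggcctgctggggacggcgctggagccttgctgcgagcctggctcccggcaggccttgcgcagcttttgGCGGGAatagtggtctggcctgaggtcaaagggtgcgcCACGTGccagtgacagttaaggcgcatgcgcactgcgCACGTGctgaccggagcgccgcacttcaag
Rec8: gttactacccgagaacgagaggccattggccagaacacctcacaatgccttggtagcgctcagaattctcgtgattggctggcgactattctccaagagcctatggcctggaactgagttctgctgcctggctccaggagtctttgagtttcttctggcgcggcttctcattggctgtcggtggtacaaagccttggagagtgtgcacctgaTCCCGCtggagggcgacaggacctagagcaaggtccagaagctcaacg
Smc3: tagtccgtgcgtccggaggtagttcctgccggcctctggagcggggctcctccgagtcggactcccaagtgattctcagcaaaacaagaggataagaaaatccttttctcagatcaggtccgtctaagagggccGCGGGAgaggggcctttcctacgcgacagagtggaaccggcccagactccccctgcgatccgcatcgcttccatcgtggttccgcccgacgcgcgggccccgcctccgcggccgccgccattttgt

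In WT spermatocytes, transcripts of every member were measured at LZ. By the test described below, 8 of the 10 were lower at PD, beside 36.2% of the 15899 genes tested. The order of mean FPKM in WT LZ was Smc1b, Hormad1, Smc3, Rad21, Stag3, Stag1, Smc1a, Stag2, Hormad2 and Rec8. The libraries of Smc3 and Rad21 overlapped, and so did those of each neighboring pair from Smc1a to Rec8. Hormad1 was the most abundant member in WT PD, followed by Smc1b and Stag3, and these 3 were each above every somatic or shared cohesin gene in both WT PD libraries.

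Rec8, the meiosis-specific kleisin, measured 11.2 and 8.98 FPKM (WT LZ), 12.6 and 15.9 (Cnot4-KO LZ), 0.692 and 1.01 (WT PD) and 8.72 and 5.41 (Cnot4-KO PD). The WT PD libraries stood below all 6 others, with about 11 and 18 reads behind the 2 values. Smc1b, the meiotic partner of SMC3, measured 221 and 217 FPKM (WT LZ), 293 and 193 (Cnot4-KO LZ), 100.4 and 93.4 (WT PD) and 115 and 76.6 (Cnot4-KO PD). For Smc1b the stages were separate in both genotypes, and the genotypes overlapped at both stages. Stag3, the meiotic STAG subunit, measured 66.6 and 71.3 FPKM (WT LZ), 68.7 and 69.6 (Cnot4-KO LZ), 79.1 and 80.8 (WT PD) and 48.0 and 24.5 (Cnot4-KO PD). Its level in WT PD was above both LZ groups and that in Cnot4-KO PD below all other libraries.

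Hormad1, which promotes double-strand break formation and marks unsynapsed axes, measured 129 and 169 FPKM (WT LZ), 277.5 and 159 (Cnot4-KO LZ), 192 and 218.5 (WT PD) and 104 and 57.8 (Cnot4-KO PD). The Cnot4-KO PD libraries were again below all 6 others. Hormad2, needed to bring the ATR kinase to unsynapsed chromatin, was far less abundant, with 9.56 and 17.4 FPKM (WT LZ), 21.9 and 15.6 (Cnot4-KO LZ), 5.06 and 5.97 (WT PD) and 4.36 and 3.485 (Cnot4-KO PD). Both genotypes had lower Hormad2 at PD, and the 2 Cnot4-KO PD values lay under the 2 WT PD values.

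Smc3, the subunit common to all cohesin rings, measured 105 and 93.1 FPKM (WT LZ), 129 and 103 (Cnot4-KO LZ), 4.71 and 4.06 (WT PD) and 29.3 and 44.2 (Cnot4-KO PD). Rad21, the mitotic kleisin, followed with 98.9 and 89.95 FPKM (WT LZ), 78.1 and 98.0 (Cnot4-KO LZ), 5.87 and 5.415 (WT PD) and 45.4 and 66.35 (Cnot4-KO PD). For both genes the WT PD values were the lowest and the Cnot4-KO PD values lay between WT PD and LZ, with no overlap of these groups. Smc1a, the somatic counterpart of Smc1b, measured 17.2 and 11.2 FPKM (WT LZ), 16.7 and 14.5 (Cnot4-KO LZ), 0.204 and 0.187 (WT PD) and 3.87 and 4.67 (Cnot4-KO PD). The WT PD values rest on about 7 reads in each library, so they are near the lower limit of what these libraries could measure.

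Stag2, a STAG subunit of mitotic cohesin, measured 15.1 and 12.5 FPKM (WT LZ), 18.5 and 14.0 (Cnot4-KO LZ), 0.525 and 0.355 (WT PD) and 7.23 and 11.01 (Cnot4-KO PD). Its paralog Stag1 measured 47.6 and 45.6 FPKM (WT LZ), 47.7 and 53.1 (Cnot4-KO LZ), 8.36 and 10.2 (WT PD) and 13.4 and 13.8 (Cnot4-KO PD). Stag1 stood apart from the other 4 somatic or shared genes, since its Cnot4-KO PD level was close above WT PD. That level was far below LZ, as were those of Smc1a and Smc3.

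**Figure D1:**
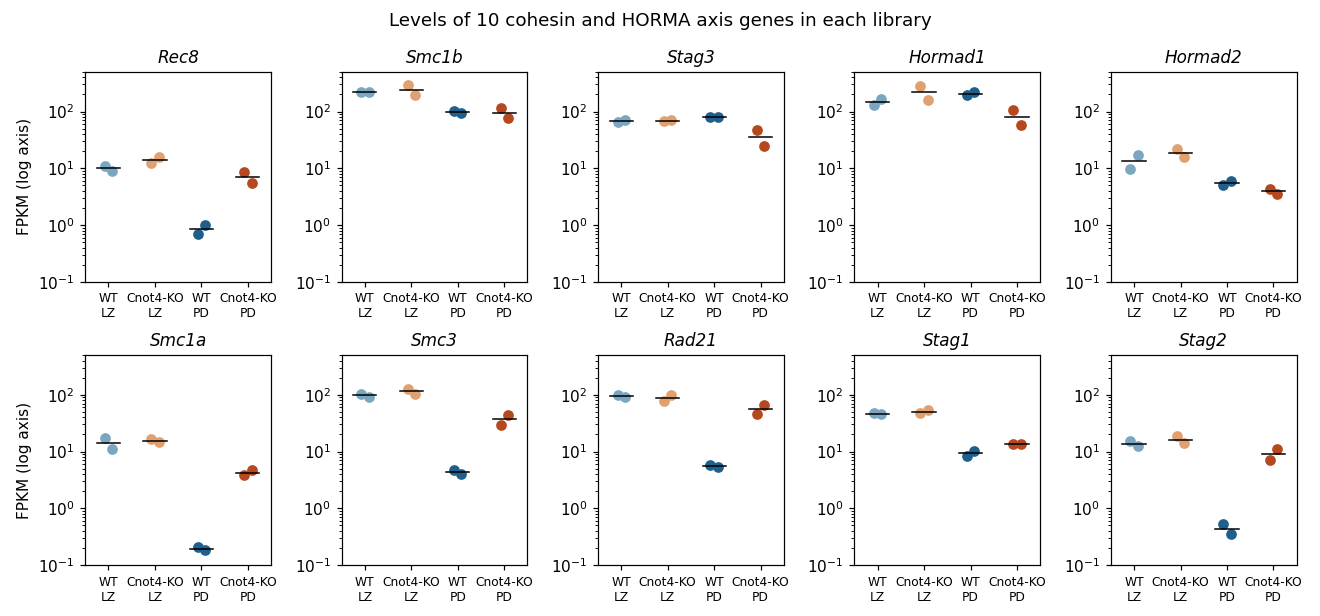
FPKM on a log axis for the 10 genes in the 8 libraries, with 1 point a library and a bar at the mean of the 2 libraries in a group. In WT PD, Rec8, Smc1a, Smc3, Rad21 and Stag2 sit well below the other groups, while Stag3 and Hormad1 are lowest in Cnot4-KO PD.

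Each member was tested in a fit of all genes with limma on log2(FPKM + 1), where a gene was called at an adjusted p under 0.05. On this scale the change of a gene near 0 FPKM is understated. From WT LZ to WT PD, 8 of 10 members fell and 0 rose, against 57.8% of the 15899 genes tested that were called, 21.6% higher and 36.2% lower. The median change of the 10 was -2.40 and that of all genes -0.32. The 5 somatic or shared genes all fell. On the log2(FPKM + 1) scale the largest fall was that of Smc3, by 4.21 ± 0.25 (SE, n = 2 and 2 libraries; limma adjusted p = 2.41e-05), followed by Rad21 (-3.84), Smc1a (-3.64), Stag2 (-3.36) and Stag1 (-2.22). As a share of the LZ mean, less was left at PD of Smc1a (1.38%) and Stag2 (3.19%) than of Smc3 (4.44%). Among the meiosis-specific genes, Rec8 fell by 2.58 ± 0.29 (limma adjusted p = 0.000255) and Smc1b by 1.17 ± 0.27 (limma adjusted p = 0.00790). Relative to the median of all genes these were changes of -2.26 and -0.85.

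Markers of some other cells also moved between the WT stages, where 36.2% of all genes were called lower. Leydig cell, peritubular, macrophage and endothelial markers were called for 0 of 6, 0 of 4, 0 of 5 and 0 of 2 genes. Spermatogonial markers, led by Uchl1, fell for 6 of 6 genes, with sums of 710 and 677 FPKM (WT LZ) and 15.4 and 8.67 (WT PD). Sertoli cell markers, led by Amhr2, fell for 4 of 5, with sums of 18.6 and 18.8 FPKM and then 1.72 and 3.45, and spermatid markers, led by Prm1, for 2 of 6, with 1830 and 1500 and then 404 and 252. The part of such cells in the falls of Rec8, Smc1b, Hormad2 and the somatic or shared cohesin genes was not tested.

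Stag3 and Hormad1 were not called between WT LZ and WT PD, with changes of 0.21 ± 0.30 (limma adjusted p = 0.598) and 0.47 ± 0.36 (limma adjusted p = 0.314). Quantile normalization moved them to -0.08 and -0.02, so their direction in WT depends on the scaling. When every library was rescaled to the same median FPKM, both were called higher, at 1.09 and 1.35. Hormad2 fell by 1.10 ± 0.33 (limma adjusted p = 0.0220). That call was lost without WT LZ replicate 2 (adjusted p = 0.118), WT PD replicate 1 (adjusted p = 0.124) or WT PD replicate 2 (adjusted p = 0.0764), and also with no filter on genes (adjusted p = 0.0556), with only the WT libraries (adjusted p = 0.0659), after quantile normalization (adjusted p = 0.221) and at the same median (adjusted p = 0.415). It was kept in 10 of 17 alternatives, over a range of 0.0118 to 0.415. Smc1b lost its call without WT PD replicate 2 (adjusted p = 0.0537) and at the same median (adjusted p = 0.385), and kept it in 15 of 17 alternatives (lowest 0.000204). The direction of these falls was the same in all alternatives, and at the same median they came to -0.32 for Hormad2 and -0.29 for Smc1b.

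In Cnot4-KO spermatocytes, 8 of 10 members were also lower at PD than at LZ and 0 higher, beside 46.0% of all genes called, 27.8% higher and 18.2% lower. The called members were other ones in part: Stag3 fell by 0.99 ± 0.30 and Hormad1 by 1.42 ± 0.36, and Rad21 and Stag2 were not called, with changes of -0.66 (limma adjusted p = 0.0543) and -0.78 (limma adjusted p = 0.0575). The largest decrease was that of Hormad2, by 1.99 ± 0.33, then Stag1 (-1.81), Smc1a (-1.66), Smc3 (-1.65), Smc1b (-1.33) and Rec8 (-0.94). The median over the 10 members was -1.38 and over all genes 0.19. Every Cnot4-KO PD library was below every Cnot4-KO LZ library for all 10 genes. The share of all genes with such a separation was not counted, so this only describes the members. In the same comparison markers rose for 6 of 6 spermatid, 6 of 6 Leydig cell, 4 of 4 peritubular, 3 of 5 macrophage, 2 of 5 Sertoli cell and 1 of 2 endothelial genes, and 1 of 6 spermatogonial genes fell. Their part in the changes of the members was not tested.

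Single libraries decided some of these calls in Cnot4-KO cells. Without Cnot4-KO LZ replicate 1, 4 members and 4644 genes were called, and 4828 genes without replicate 2, against 8 and 7316 in the full set. The call of Rec8 was lost when any library but Cnot4-KO PD replicate 1 was left out, with limma adjusted p from 0.0508 without WT LZ replicate 1 to 0.161 without Cnot4-KO LZ replicate 2 (range over all alternatives 0.00740 to 0.161). That of Stag3 was lost without any 1 of the 6 libraries of the other groups than Cnot4-KO PD, with adjusted p from 0.0572 without WT LZ replicate 2 to 0.119 without Cnot4-KO LZ replicate 2 (range 0.00131 to 0.122). Hormad1 lost its call without Cnot4-KO LZ replicate 1 (adjusted p = 0.110) or Cnot4-KO PD replicate 2 (adjusted p = 0.0846; range 0.00215 to 0.110), and Smc1b without Cnot4-KO LZ replicate 1 (adjusted p = 0.0505; range 0.000590 to 0.0565). Rad21 and Stag2 gained one without Cnot4-KO PD replicate 2, at adjusted p = 0.0138 and 0.0277, in ranges of 0.00488 to 0.233 and 0.00588 to 0.243. With no filter on genes Rec8 (adjusted p = 0.0614), Stag3 (0.0784) and Hormad1 (0.0604) lost their calls, and with only the Cnot4-KO libraries Rec8 (0.116), Smc1b (0.0565), Stag3 (0.122) and Hormad1 (0.0790) did. Of 17 alternatives, Rec8 was called in 6, Stag3 in 9, Hormad1 in 13, Smc1b in 15, Rad21 in 3 and Stag2 in 4.

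Expressed as the share of the LZ mean that was measured at PD, 1.38% of Smc1a, 3.19% of Stag2, 4.44% of Smc3, 5.98% of Rad21 and 8.46% of Rec8 was left in WT. The same genes in Cnot4-KO cells were at 27.4%, 56.2%, 31.6%, 63.5% and 49.6%. For each of these 5 genes the lowest ratio between single Cnot4-KO libraries exceeded the highest ratio between WT libraries. That was also so for Stag1, by less, with 25.3% against 22.3%. Stag3 was at 116% in WT and 52.4% in Cnot4-KO, and Hormad1 at 138% and 37.1%. Smc1b was nearly alike in both genotypes, at 44.3% and 39.4%, and Stag1 was at 19.9% and 27.0%. Hormad2 was at 40.9% and 20.9%, and its highest Cnot4-KO ratio of 27.9% lay just under its lowest WT ratio of 29.0%.

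**Figure D2:**
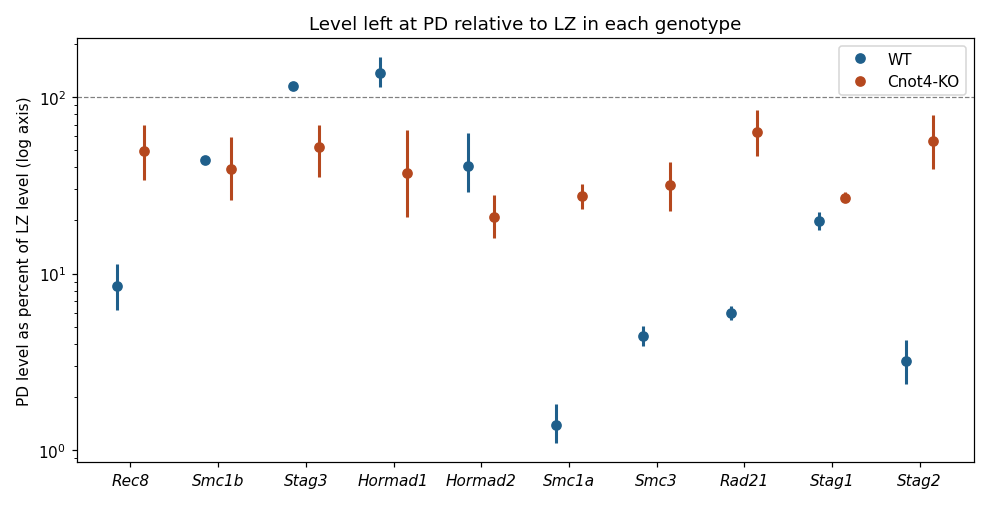
Level at PD as a percentage of the level at LZ, on a log axis, for each gene in WT and Cnot4-KO. Points are ratios of group means, and lines run from the lowest to the highest of the 4 ratios between single libraries. The lines of the 2 genotypes are far apart for Rec8, Smc1a, Smc3, Rad21 and Stag2, and in the opposite order for Stag3 and Hormad1, whose WT direction turned under quantile normalization.

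Between the genotypes at LZ limma called 0 of 10 members, and 0 of the 10 had an unadjusted p under 0.05. This does not show that their levels were equal, since differences of the size seen here can be missed with 2 libraries in a group. Across all genes 15, or 0.0943%, were called, and 1013 (6.37%) had an unadjusted p under 0.05. The 15 became 25 without WT LZ replicate 1 and 9 without either WT PD library. The 10 changes lay between -0.11 for Rad21 and 0.51 for Hormad1, with a median of 0.18. Stag3 means were 69.1 FPKM in Cnot4-KO LZ and 69.0 in WT LZ. Rec8 and Stag1 were the 2 members whose libraries did not overlap between genotypes at LZ, with mean ratios of 1.41 and 1.08 and changes of 0.46 ± 0.29 and 0.11 ± 0.19 (limma adjusted p = 0.913 and 1). The share of all genes without overlap at LZ was not counted, so this marks no trait of Rec8 and Stag1. Sertoli cell markers summed to 18.6 and 18.8 FPKM (WT LZ) and 2.73 and 5.57 (Cnot4-KO LZ), led by Amhr2, with 0 of 5 called.

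At PD the genotypes differed for 7 of 10 members, 5 higher and 2 lower in Cnot4-KO, where 53.1% of all genes were called, 41.6% higher and 11.5% lower. Rad21 was higher by 3.07 ± 0.24 (SE, n = 2 and 2 libraries; limma adjusted p = 0.000197), Stag2 by 2.79 ± 0.28, Smc3 by 2.78 ± 0.25, Smc1a by 2.14 ± 0.27, and Rec8 was called higher too (limma adjusted p = 0.00141). In mean FPKM the ratio of Cnot4-KO to WT was 21.8 for Smc1a, 20.7 for Stag2, 9.90 for Rad21, 8.37 for Smc3 and 8.28 for Rec8. Hormad1 was lower, with a change of -1.39 ± 0.36 (limma adjusted p = 0.0162), and so was Stag3, with -1.19 ± 0.30 (limma adjusted p = 0.0135). The ratios in mean FPKM were 0.395 for Hormad1 and 0.454 for Stag3. Stag1 (0.51, limma adjusted p = 0.0547), Hormad2 (-0.41) and Smc1b (-0.04) were not called on the scale of the files, although the libraries of Stag1 and Hormad2 did not overlap. How many of all genes had no overlap at PD was not counted.

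The median change of all genes between the genotypes at PD was 0.66, so the members were also read against it. Relative to that median Rad21 was at 2.41, Stag2 at 2.13, Smc3 at 2.12, Smc1a at 1.47 and Rec8 at 1.43, and Stag3 and Hormad1 at -1.86 and -2.05. Stag1 changed sign, to -0.15, and Smc1b and Hormad2 went to -0.71 and -1.07. The 5 higher and 2 lower members had the same direction under every alternative run. Smc1a, Smc3, Rad21 and Stag2 were called in all 17 alternatives and Rec8 in 16, the exception being quantile normalization, with a change of 0.75 (limma adjusted p = 0.137; range over the alternatives 0.000854 to 0.137). At the same median all 10 members were called, 5 higher and 5 lower. Hormad2 was called lower after quantile normalization (-1.70, limma adjusted p = 0.00875) and at the same median (-1.61, adjusted p = 0.00330; range over the alternatives 0.00330 to 0.612). Smc1b was called lower at the same median (-1.47, adjusted p = 0.00237; range 0.00237 to 1). Whether these 2 members differed between the genotypes at PD thus depended on the scaling. Of all genes called, 78.3% were higher on the scale of the files, 41.0% after quantile normalization and 36.9% at the same median.

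The decreases at PD rested on fewer settings. Stag3 lost its call without WT PD replicate 1 (limma adjusted p = 0.0718) or WT PD replicate 2 (adjusted p = 0.0768), and with only the PD libraries (adjusted p = 0.0729), so that it was called in 14 of 17 alternatives (lowest 0.000569). Hormad1 lost its call without WT PD replicate 1 (adjusted p = 0.0693), WT PD replicate 2 (adjusted p = 0.0946) or Cnot4-KO PD replicate 2 (adjusted p = 0.0996), with no filter on genes (adjusted p = 0.0596) and with only the PD libraries (adjusted p = 0.0502), so that it was called in 12 of 17 (lowest 0.000623). Stag1 was called in 5 of 17 alternatives, and not in 1 direction. It was called higher without Cnot4-KO PD replicate 1 (adjusted p = 0.0431), with no filter on genes (adjusted p = 0.0251), with a mean FPKM of at least 5 (adjusted p = 0.0484) and with a pseudocount of 0.1 (adjusted p = 0.0487), and lower at the same median (-0.81, adjusted p = 0.0102; highest 0.394). In total 8 members were called without Cnot4-KO PD replicate 1, 6 without replicate 2 and 5 with only the PD libraries. Of all genes 8449 were called, against 4341 without WT PD replicate 1 and 4057 without replicate 2.

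**Figure D3:**
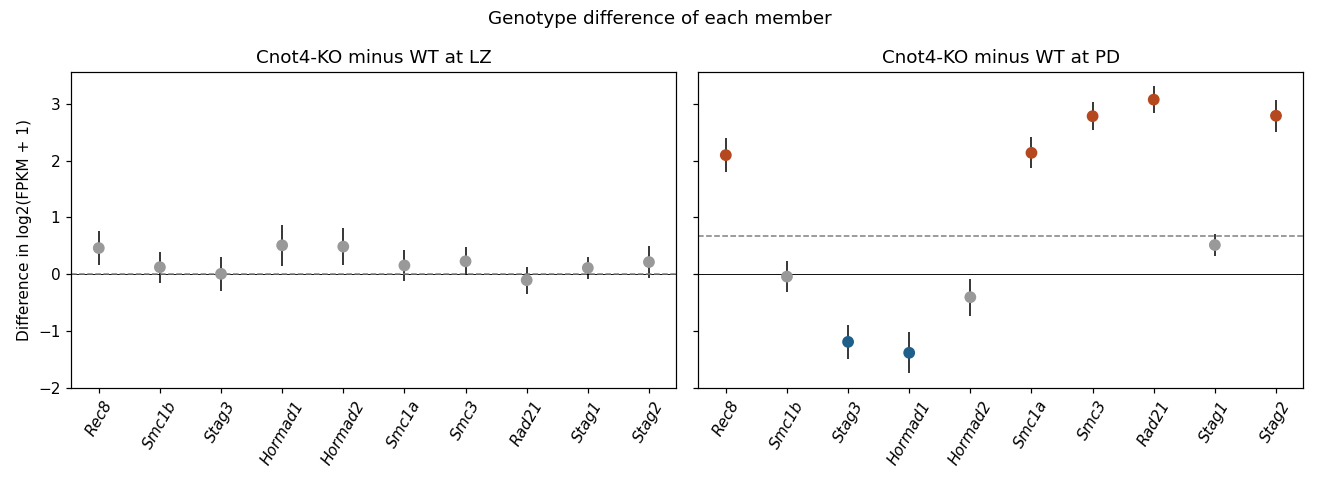
Difference between Cnot4-KO and WT in log2(FPKM + 1) at LZ (left) and PD (right), with bars of 1 SE. Red points were called higher, blue points called lower and grey points not called, and the dashed line is the median of all genes. No member was called at LZ. At PD 5 members were called higher and 2 lower, with Stag1 on the other side of the median than of 0.

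Markers of other cells moved with the PD comparison, where 41.6% of all genes were called higher and 11.5% lower. Spermatid markers were higher in Cnot4-KO PD for 6 of 6 genes, led by Prm1, which encodes protamine, with sums of 404 and 252 FPKM in WT PD and 15700 and 7060 in Cnot4-KO PD. Leydig cell markers were higher for 6 of 6, led by Insl3, a peptide hormone, with 115 and 7.07 FPKM in WT PD and 10000 and 22200 in Cnot4-KO PD. Lhcgr, the luteinizing hormone receptor, was at 0 in 5 of the 8 libraries but at 4.03 and 8.85 FPKM in Cnot4-KO PD. Spermatogonial markers, led by Uchl1, were higher for 6 of 6, at 15.4 and 8.67 FPKM in WT PD and 313 and 436 in Cnot4-KO PD, and all 4 LZ libraries held between 457 and 710.

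Somatic lists of lower abundance had higher sums in both Cnot4-KO PD libraries than in WT PD. Their called counts stand beside 41.6% of all genes called higher and were not tested against that share. Peritubular myoid cell markers, led by Acta2, were higher for 4 of 4 genes, with 1.39 and 1.03 FPKM in WT PD and 50.2 and 245 in Cnot4-KO PD. Macrophage markers were higher for 3 of 5, Cd68, Csf1r and C1qa, with sums of 1.70 and 1.46 against 17.2 and 84.9. Lyz2, the most abundant of them, was not called (limma adjusted p = 0.0595), and C1qa was at 0 in both WT PD libraries. Sertoli cell markers were higher for 3 of 5, from 1.72 and 3.45 to 11.2 and 19.5. Endothelial markers were higher for 1 of 2 tested, led by Cdh5, with 0.298 and 0.195 against 1.65 and 7.29, and Kdr was at 0 in both WT PD libraries. The pachytene and diplotene markers were lower for 3 of 8, and all 8 had changes below 0.

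Leptotene and zygotene markers were called for 4 of 6 at PD, with Dmc1 (2.42) and Prdm9 (1.31) higher and Sycp3 (-1.17) and Spo11 (-1.63) lower in Cnot4-KO, and with sums of 1040 and 1070 FPKM (WT PD) and 701 and 448 (Cnot4-KO PD). Among all lists, C1qa and Kdr were at 0 in 4 of the 8 libraries, Cyp11a1, Cyp17a1, Myh11, Cnn1, Csf1r and Pecam1 in 3, Emr1, Lyz2, Cdh5 and Tek in 2, and Hsd3b1, Acta2, Des and Cd68 in 1, with 0 of these in Cnot4-KO PD. The sort was made for spermatocytes, and the labels name none of these other cells. How far RNA of such cells, or the lower share of pachytene and diplotene markers, contributed to the levels of the 10 members was not tested. Both Cnot4-KO PD libraries carried the markers, so no comparison at PD could be made without them.

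**Figure D4:**
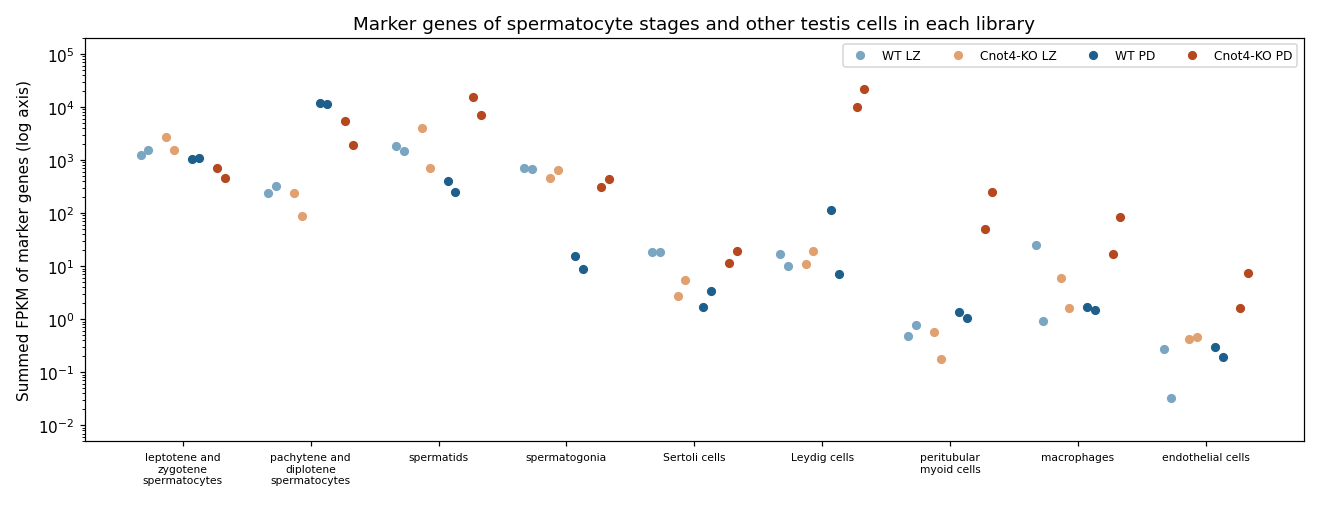
Summed FPKM of marker genes on a log axis for 9 cell types in the 8 libraries, with 1 point a library. The 2 Cnot4-KO PD libraries have the highest sums for spermatids, Leydig cells, peritubular myoid cells and endothelial cells, and lie between LZ and WT PD for pachytene and diplotene markers.

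The dependence of the genotype difference on stage was tested as the interaction, the difference at PD minus that at LZ. It was called for 6 of 10 members, 5 higher and 1 lower, and for 30.0% of all genes, 26.0% higher and 3.97% lower. Values were 3.18 ± 0.33 for Rad21 (limma adjusted p = 0.00176), 2.58 ± 0.40 for Stag2, 2.56 ± 0.35 for Smc3, 1.98 ± 0.39 for Smc1a and 1.64 ± 0.42 for Rec8, against a median of 0.64 over all genes. Hormad1 was the member called lower, at -1.89 ± 0.51 (limma adjusted p = 0.0315). Stag3 (-1.20, limma adjusted p = 0.0672), Hormad2 (-0.89), Smc1b (-0.16) and Stag1 (0.40) were not called on the scale of the files. At the same median all 4 were called lower, with Stag3 at -2.65 (limma adjusted p = 0.00468), Hormad2 at -2.13 (0.00852), Smc1b at -1.63 (0.0117) and Stag1 at -0.96 (0.0300). Hormad2 was also called lower after quantile normalization (-2.21, limma adjusted p = 0.0239). The highest adjusted p over the alternatives was 0.182 for Stag3, 0.413 for Hormad2, 0.908 for Smc1b and 0.563 for Stag1. Relative to the median Stag1 was at -0.24, so its sign turned here too.

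The interaction of Rad21, Smc3 and Stag2 was called in all 16 alternatives. Smc1a was called in 13, losing its call without WT PD replicate 1 (limma adjusted p = 0.0563) or replicate 2 (adjusted p = 0.0602) and with quantile normalization (adjusted p = 0.220; lowest 0.00262). Rec8 was called in 7 of 16. Its value came to 0.27 with quantile normalization (adjusted p = 0.734) and to 0.66 at the same median (adjusted p = 0.258), so it depended strongly on the scaling. The call was also lost without any 1 of the 6 libraries outside Cnot4-KO PD, at adjusted p from 0.0515 without WT LZ replicate 2 to 0.111 without WT PD replicate 1 (range 0.0135 to 0.734). With no filter on genes Rec8 (adjusted p = 0.0548) and Hormad1 (adjusted p = 0.0969) were not called. Hormad1 was called in 9 of 16, and lost the call without any single library except Cnot4-KO LZ replicate 2 and Cnot4-KO PD replicate 1, at adjusted p from 0.0666 without WT LZ replicate 2 to 0.118 without WT PD replicate 2 (range 0.00367 to 0.118). Stag3 passed without Cnot4-KO PD replicate 1 (adjusted p = 0.00205) or replicate 2 (adjusted p = 0.0186), in a range of 0.00205 to 0.182. In total 3 members were called without either WT PD library. The 4770 genes called became 1777 and 1656 without WT PD replicate 1 and 2, 2569 and 3151 without WT LZ replicate 1 and 2, 2710 and 2299 without Cnot4-KO LZ replicate 1 and 2, and 7929 without Cnot4-KO PD replicate 1.

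Shares between paralogs do not depend on a common scale factor of a library, but quantile normalization, which is not a common factor, moved some of them. Of the summed FPKM of Stag1, Stag2 and Stag3, Stag3 took 51.5% and 55.1% (WT LZ), 50.9% and 50.9% (Cnot4-KO LZ), 89.9% and 88.5% (WT PD) and 69.9% and 49.7% (Cnot4-KO PD). The WT PD libraries were thus set apart from the 6 others, and the Cnot4-KO PD libraries spread from the LZ level to a value between. Smc1b held 92.8% to 95.1% of the sum of Smc1b and Smc1a in the 4 LZ libraries, 99.8% in both WT PD libraries, and 96.7% and 94.3% (Cnot4-KO PD). Hormad1 held 90.6% to 93.1% of the Hormad1 and Hormad2 sum at LZ, 97.4% and 97.3% (WT PD), and 96.0% and 94.3% (Cnot4-KO PD). The order of the PD means of the Hormad1 share, 97.4% in WT and 95.2% in Cnot4-KO, turned after quantile normalization, to 95.1% and 97.6%.

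Rec8 and Rad21 behaved otherwise, since both kleisin transcripts were lower in WT PD and both were higher in Cnot4-KO PD. Rec8 was 10.2% and 9.08% of their sum (WT LZ), 13.9% and 14.0% (Cnot4-KO LZ), 10.5% and 15.8% (WT PD) and 16.1% and 7.54% (Cnot4-KO PD). The PD groups overlapped, and quantile normalization moved their means from 13.2% (WT) and 11.8% (Cnot4-KO) to 19.1% and 8.51%. The mean share of Stag3 differed by -29.4 percentage points between Cnot4-KO PD (59.8% ± 14.3) and WT PD (89.2% ± 1.02, SD, n = 2 libraries each), with an exact permutation p of 0.333, two-sided, the smallest that 2 against 2 libraries allow. Over the 16 share comparisons made, the adjusted p of the exact permutation test was 0.533 or more.

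**Figure D5:**
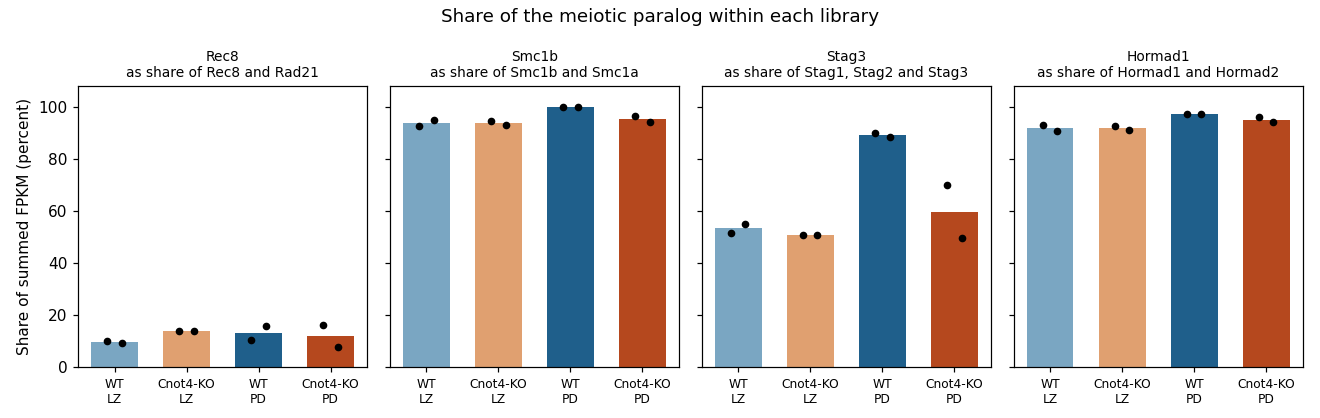
Share of Rec8, Smc1b, Stag3 and Hormad1 in the summed FPKM of their paralogs, in percent. Bars are means of 2 libraries and points the single libraries. Stag3 takes 89.2% in WT PD and 59.8% in Cnot4-KO PD, and Rec8 takes at most 16.1% in any library.

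Smc1a and Stag2 are the 2 members on the X chromosome, which is transcriptionally silenced in pachytene spermatocytes as part of the sex body. On mm9, the build the authors aligned to, Smc1a lies at chrX:148450971-148497237 and Stag2 at chrX:39502494-39630362, both on the plus strand. Of the genes tested, 654 were X-linked. They fell from WT LZ to WT PD in 406 cases (62.1%) and rose in 6, with a median of -1.76, against -0.31 for 14611 autosomal genes. Of the autosomal genes 36.1% fell and 22.2% rose. Between the Cnot4-KO stages 33.0% of X-linked genes fell and 19.6% rose, beside 18.1% and 27.3% of autosomal genes. In Cnot4-KO PD compared with WT PD, 485 X-linked genes (74.2%) were higher and 2 lower, with a median of 1.95, against 0.61 on the autosomes. There 40.4% of the autosomal genes were higher and 11.9% lower. X-linked genes above 1 FPKM numbered 460 and 466 (WT LZ), 482 and 461 (Cnot4-KO LZ), 139 and 128 (WT PD) and 523 and 543 (Cnot4-KO PD). Both Cnot4-KO PD libraries were thus above every LZ library in this number. The Cnot4-KO PD libraries also carried markers of spermatids and somatic cells, whose part in these X-linked values was not tested. Smc1a and Stag2 thus moved in the direction of the X-linked genes as a class. The autosomal Rad21, Smc3 and Rec8 were called higher too, with ratios in mean FPKM of 9.90, 8.37 and 8.28, against 21.8 for Smc1a and 20.7 for Stag2.

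The members differ in the length of the 3′ untranslated region, which ranged in the longest coding transcript from 34 bases in Rec8 to 1987 in Stag1. It was 271 bases in Smc1b, 349 in Stag3, 322 in Hormad1 and 748 in Hormad2, and 885 in Smc1a, 1053 in Smc3, 1451 in Rad21 and 1899 in Stag2. The 5 members that were higher in Cnot4-KO PD thus include both the shortest and some of the longest.

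Genes that load, acetylate, protect or cleave cohesin were counted from a list of 13, of which 12 were tested and Hdac8 was too low. From WT LZ to WT PD, 2 rose and 8 fell, and in Cnot4-KO 0 rose and 7 fell, beside 57.8% and 46.0% of all genes called. Pttg1, the securin that restrains separase, rose in WT (limma adjusted p = 0.000251), from 139 and 139 FPKM to 661 and 622, and was at 220 and 205.5 in Cnot4-KO LZ and 330 and 201 in Cnot4-KO PD. Nipbl, the cohesin loader, rose by 1.78 ± 0.28 in WT, from 28.4 and 28.3 to 98.1 and 101 FPKM, and was at 68.2 and 45.9 in Cnot4-KO PD. The falls in WT were led by Esco2, an SMC3 acetyltransferase (-4.93 ± 0.31), Sgol1, a shugoshin that guards centromeric cohesin (-3.66 ± 0.23), and Pds5b, a regulator of ring release (-1.65 ± 0.22).

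Between the genotypes at PD, 4 of the 12 regulators were called, beside 53.1% of all genes. Esco2 (2.87 ± 0.31; limma adjusted p = 0.000523) and Sgol1 (1.87 ± 0.23) were higher, and Pttg1 (-1.31 ± 0.25) and Nipbl (-0.82 ± 0.28; limma adjusted p = 0.0405) were lower in Cnot4-KO. These 4 were also the ones called in the interaction, in the same directions, beside 30.0% of all genes. Esco2 was at 2.23 and 3.003 FPKM in WT PD and 18.7 and 34.0 in Cnot4-KO PD, and Sgol1 at 0.790 and 1.24 against 7.20 and 5.55. At LZ limma called 0 of the 12, and 1 had an unadjusted p under 0.05, Pttg1.

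Of 9 axis and HORMA domain partners, 1 rose and 5 fell in WT PD, and 3 were higher and 3 lower in Cnot4-KO PD than in WT PD. These 6 of 9 in each comparison stand beside 57.8% and 53.1% of all genes called. Rad21l, a further meiosis-specific kleisin, measured 7.42 and 4.78 FPKM (WT LZ), 10.9 and 4.99 (Cnot4-KO LZ), 0 in both WT PD libraries, and 0.536 and 0 (Cnot4-KO PD). Unlike Rec8 it thus was near 0 at PD in both genotypes. Trip13, which removes HORMAD proteins from axes, measured 59.8 and 65.1 FPKM (WT LZ), 49.3 and 56.2 (Cnot4-KO LZ), 5.28 and 5.29 (WT PD) and 19.6 and 18.4 (Cnot4-KO PD), a genotype difference at PD of 1.67 ± 0.18 (limma adjusted p = 0.000526). The autophagy HORMA gene Atg101 was higher by 2.49 ± 0.25 and the spindle checkpoint gene Mad2l1 by 0.91 ± 0.22.

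The axis genes Sycp2 and Sycp3 were lower in Cnot4-KO PD than in WT PD, as were Hormad1 and Stag3, and matched them only in part between stages. From LZ to PD, Sycp3 was not called in WT (0.05) and fell by 1.83 in Cnot4-KO, and Sycp2 was called in neither (0.51 and -0.64). Sycp3 measured 650.2 and 906 FPKM (WT LZ), 1725 and 907 (Cnot4-KO LZ), 785 and 799 (WT PD) and 473 and 259.6 (Cnot4-KO PD). Sycp2 measured 119 and 139 FPKM (WT LZ), 208 and 143 (Cnot4-KO LZ), 198 and 171 (WT PD) and 126 and 96.4 (Cnot4-KO PD). The differences between the genotypes at PD were -1.17 ± 0.40 (limma adjusted p = 0.0409) and -0.73 ± 0.25 (limma adjusted p = 0.0424), and the interaction was called for both, at -1.88 and -1.15. It was called for 4 of the 9 partners, beside 30.0% of all genes, with Atg101 (2.37) and Trip13 (1.91) called higher. Mad2l2, a HORMA domain subunit of a translesion polymerase, was lower as well, by a change of -1.54 ± 0.34, and in it the PD levels of 638 and 548 FPKM in WT and 291 and 142 in Cnot4-KO were above all LZ values. At LZ limma called 0 of the 9 partners, and 0 had an unadjusted p under 0.05.

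For each member the tested gene with the most similar pattern was sought, by Euclidean distance between centred log2(FPKM + 1) values over the 8 libraries. These were Lhx2 for Rec8 (distance 0.422), Gtf2h5 for Smc1b (0.228), Rad51ap1 for Stag3 (0.302), Zfp667 for Hormad1 (0.418), Iqcb1 for Hormad2 (0.368), Coro1c for Smc1a (0.299), Neto2 for Smc3 (0.228), Cecr2 for Rad21 (0.310), 5730419I09Rik for Stag1 (0.287) and Snx8 for Stag2 (0.309). As an example of how near these are, Rad51ap1 was at 58.7 and 55.4 FPKM in WT PD and 35.0 and 20.6 in Cnot4-KO PD, beside 53.7 and 50.2 in WT LZ.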

How the data were processed

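Per the submitters' processing notes, the authors aligned reads to mm9 with TopHat2 2.1.1 and deposited 1 FPKM value per gene and library from Cufflinks 2.2.1. The labels describe a TruSeq kit and the study's methods an amplification of small sorted pools, and which was used was not determined. Members and gene lists were chosen with earlier results of these data known. The 15899 genes above 1 FPKM in at least 1 library entered 1 limma 3.58.1 fit (R 4.3.3, eBayes with trend, two-sided) of log2(FPKM + 1), with Benjamini-Hochberg adjustment in each of 5 contrasts. The procedure was tried on simulated data for Cnot4-KO PD against WT PD only. There 67, 67 and 66 of 15899 genes were given a log2 change of 1, 2 and 3, and 8.96%, 89.6% and 100% of them were called. With so few changed genes the adjustment is stricter than in the measured comparison, where 53.1% of genes were called. These shares therefore do not give the rate of missed changes in the measured data. Genes named are the members, Cnot4, each member's nearest gene, the 3 called regulators or partners with the largest change in each direction, Rad21l, Sycp2, Sycp3, Trip13, and per marker list the most abundant gene and those at 0. Dmc1, Spo11 and Prdm9 were chosen after values were seen. Sertoli marker Rhox5 was not matched, and Meiob and Atg101 were found under clone names. Read numbers are approximate, from FPKM steps and GENCODE lengths. Shares used Python 3.11.15. Alternatives were other filters, pseudocounts, scalings, no trend, fewer libraries and a replicate block.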

Additional observations from a re-analysis of the deposited data

Results flagged for a closer look

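The interaction of genotype and stage on log2(FPKM + 1) was called for 6 of the 10 genes, beside 30.0% of all genes tested: Rec8 (1.64), Smc1a (1.98), Smc3 (2.56), Rad21 (3.18) and Stag2 (2.58), for which the WT level dropped further from LZ to PD than the Cnot4-KO level, and Hormad1 (-1.89), for which both WT PD libraries lay above both WT LZ libraries while both Cnot4-KO PD libraries lay below both Cnot4-KO LZ libraries. Stag3 showed the same opposite movement of its libraries as Hormad1, but its interaction of -1.20 did not pass the test. The calls of Smc3, Rad21 and Stag2 held in 16 of 16 alternatives and that of Smc1a in 13, but that of Hormad1 in 9 and that of Rec8 in 7, where quantile normalization gave Rec8 0.27 (adjusted p = 0.734) and the same median 0.66 (adjusted p = 0.258; lowest 0.0135). For Stag3 and Hormad1 the WT movement was not called and changed sign under quantile normalization. Markers of other cell types were also higher in the Cnot4-KO PD libraries, and whether such cells had a part in these values was not tested.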

How the results depend on the processing

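Of 840 member values recomputed over the alternatives, 738 kept their direction and side of the threshold, 62 lost and 22 gained a call, and 18 changed sign; apart from the values below, the direction held. Quantile normalization turned Stag3 and Hormad1 between the WT stages to -0.0798 and -0.0159, Stag3 between genotypes at LZ to -0.0259, Smc1b and Stag1 at PD to 0.16 and -0.23, and their interactions to 0.0767 and -0.32. The same median turned Stag1 at PD to -0.81 and its interaction to -0.96. At LZ, Smc1b came to -0.179 and Rad21 to 0.0542 without Cnot4-KO LZ replicate 1, against 0.421 and -0.269 without replicate 2. Stag3 came to -0.0445 without WT LZ replicate 1, 0.0532 without WT LZ replicate 2 and -0.00551 without Cnot4-KO LZ replicate 2. Smc1a came to 0.439 and -0.135 without WT LZ replicate 1 and 2. Smc1b at PD came to 0.00807 without WT PD replicate 1, and to -0.335 and 0.247 without Cnot4-KO PD replicate 1 and 2. Its interaction came to 0.135 and -0.465 without Cnot4-KO LZ replicate 1 and 2, and to 0.126 without Cnot4-KO PD replicate 2. The cause was not tested.

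Members called between the Cnot4-KO stages numbered 8, 5 with no filter and 4 with only the libraries compared, against 9 after quantile normalization and 10 both at the same median and with a mean FPKM of at least 5. All genes called there numbered 7316, and 3955 with only those libraries. At LZ 15 genes were called, 31 with no filter and 4 with only the libraries compared. At PD 8449 were called, and 5219 with a mean FPKM of at least 5, where fewer genes were tested. For the interaction 4770 were called, and 7306 at the same median. The share of called genes that were higher was 60.5% between the Cnot4-KO stages, 37.4% after quantile normalization and 39.1% at the same median, 86.8%, 44.1% and 29.8% for the interaction, and 37.4%, 46.1% and 54.7% between the WT stages.

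Leaving out 1 library at a time, a lone library being assumed to vary like the other groups, gave between the Cnot4-KO stages 4 to 8 members and 4644 to 8333 genes, at LZ 0 members and 9 to 25 genes, at PD 5 to 8 members and 4057 to 9956 genes, for the interaction 3 to 7 members and 1656 to 7929 genes, and between the WT stages 6 to 8 members and 6930 to 10156 genes. A replicate block in the model gave 9085 called genes between the WT stages, 7128 between the Cnot4-KO stages, 16 at LZ, 8298 at PD and 4355 in the interaction, and of the members only Rec8 between the Cnot4-KO stages changed its call (adjusted p = 0.0513; range 0.00740 to 0.161). Deviations of libraries with the same number correlated between -0.0651 and 0.194, the highest between Cnot4-KO LZ and Cnot4-KO PD. Each group gives a single deviation, so these values cannot show whether libraries with the same number came from the same animals. After quantile normalization the mean shares in WT PD and Cnot4-KO PD came to 83.8% and 64.1% for Stag3 and 99.2% and 97.8% for Smc1b. For Rec8 they came to 19.1% and 8.51%, and for Hormad1 to 95.1% and 97.6%, which turned its order. Few reads stand behind the low values, since Smc1a, Rec8 and Stag2 in WT PD rest on about 7 to 24 reads.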

Other observations

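Agreement between the 2 libraries of a group, as Spearman's correlation across 15899 genes, which are not independent replicates, was 0.941 in WT LZ, 0.947 in Cnot4-KO LZ, 0.968 in WT PD and 0.892 in Cnot4-KO PD.

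Each group had 2 libraries, FPKM keeps no absolute amount of RNA per cell, and the values do not separate splice forms. Synthesis and decay of the transcripts were not measured, and protein was not measured. Promoter positions are on GRCm38.p6 and gene positions on mm9.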
